A study of Mus musculus with 19 samples.

Results

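The medial amygdala is an olfactory and social centre of the temporal lobe. Cluster N15 is a set of cells of the mouse medial amygdala, which the authors placed and named in their table of neurons. Its members were the cells whose deposited name ends in N15, and they were 271 of the 2444 cells of that table and of the 20679 cells of the table of all cells. Levels of all 16233 genes were read for the same cells in the larger table, since the neuron table lists 3343 genes. A working name of the cluster rests on F3 and Htra1.

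The study asked which cell populations respond to a stimulus, by counting transcripts in single cells with Drop-seq, in which each molecule carries a unique molecular identifier (UMI). The libraries used here came from male C57BL/6J mice, with cells dissociated by Act-Seq, a protocol built to limit transcription during dissociation. The groups used here were naive control mice (4 libraries, 77 N15 cells), seizure-affected mice (2 libraries, 64 cells), mice under acute immobilization stress (2 libraries, 54 cells) and mice exposed acutely to odors (3 libraries, 68 cells). Seizure 1, immobilization 2, odor 1 and odor 2 came from mice of 9 weeks and the other 7 from mice of 8 weeks. Whether each library stands for its own mouse or mice is not stated in the labels, so p-values measure only how far libraries spread, and that spread may be technical. The labels add that odor cells served the authors for clustering alone, without immediate early genes. How the seizures were induced and which odors were used are not given in the labels.

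In the textbook account, neurons and astrocytes divide the work of the synapse. Neurons hold the vesicle release machinery and the postsynaptic scaffold, and many of their messengers are carried into dendrites. Astrocytes clear glutamate and potassium, make glutamine and secrete lipid carriers, and their fine processes wrap synapses. F3 encodes tissue factor, the membrane receptor that starts blood coagulation, and in the brain it is known as an astrocyte transcript. Htra1 encodes a secreted serine protease, also known from astrocytes.

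N15 cells were found in 14 of 16 libraries. The 11 libraries with at least 10 such cells, the fewest allowed here, held 10 to 44 of them and 18437 to 106497 N15 UMIs each. The other 5 held 0 (naive 5 and odor 4), 1 (naive 6), 3 (immobilization 3) and 4 cells (immobilization 4). N15 made up 0% to 20% of the neuron table in naive libraries (median 10.6%), 12.1% and 14.3% after seizure, 3.19% to 26.7% after immobilization and 0% to 15.1% after odor. These ranges overlapped. In the table of all cells, 254 of the 271 cells (93.7%) stood in the authors' neuron class N, 14 in class AS (the astrocytes), 2 in the microglia and 1 in the oligodendrocyte precursors. The median N15 cell had 1989 UMIs, against 2228 in the other neuron clusters and 1341 in class AS. Among all cells, 40 carried a barcode that also occurred in another library, and 0 of them were in N15. No doublet caller was run, and the labels do not say how doublets were handled.

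The markers of the working name were not particular to N15. F3 (chromosome 3, 121723537 to 121735048, plus strand, mm10, protein-coding) stood at 116, 299, 197 and 108 CPM (UMIs of the gene scaled to a common total in each library) in naive 1 to 4, at 235 and 168 CPM after seizure, at 458 and 299 CPM after immobilization and at 411, 180 and 254 CPM after odor. Class AS lay between 912 and 1940 CPM in the same libraries, above every N15 value. Htra1 (chromosome 7, 130936111 to 130985660, plus strand, protein-coding) stood at 300, 199, 160 and 271 CPM in naive 1 to 4, at 451 and 448 CPM after seizure, at 534 and 731 CPM after immobilization and at 432, 216 and 468 CPM after odor. Class AS held 1540 to 2110 CPM of it, again above every N15 library.

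With cells pooled, F3 stood at 262 CPM in N15 (95% exact Poisson interval 224 to 304), behind N13 with 289 CPM (256 to 323) among the 16 neuron clusters. Htra1 stood at 408 CPM (360 to 459), behind N13 with 424 CPM and N2 with 412 CPM. The intervals of these neighbours overlap, and here and below such intervals cover counting error only. Ranked by the ratio of N15 to the other neuron clusters, F3 was number 84 and Htra1 number 175 of 3810 genes with at least 50 CPM in N15. F3 is in the neuron table, and Htra1 is not.

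At least 1 UMI of F3 was seen in 81 of 271 N15 cells (29.9%) and of Htra1 in 117 (43.2%). The shares in microglia, which should lack both, were 1.65% and 2.41% at a median of 1130 UMIs per cell. In cluster N12, at a median of 2008 UMIs, both shares were 8.74%, below those of N15 at nearly the same depth. N12 is among the clusters with the least of both genes. In N16, at a median of 1896 UMIs, the shares were 26.5% for F3 and 44.4% for Htra1. The deeper cells of N13 gave 44.3% and 57.4%. After each cell was thinned to 600 UMIs, F3 and Htra1 occurred together in 2.58% of N15 cells and in 41.4% of class AS cells. The cluster is therefore called by its number here.

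**Figure D1:**
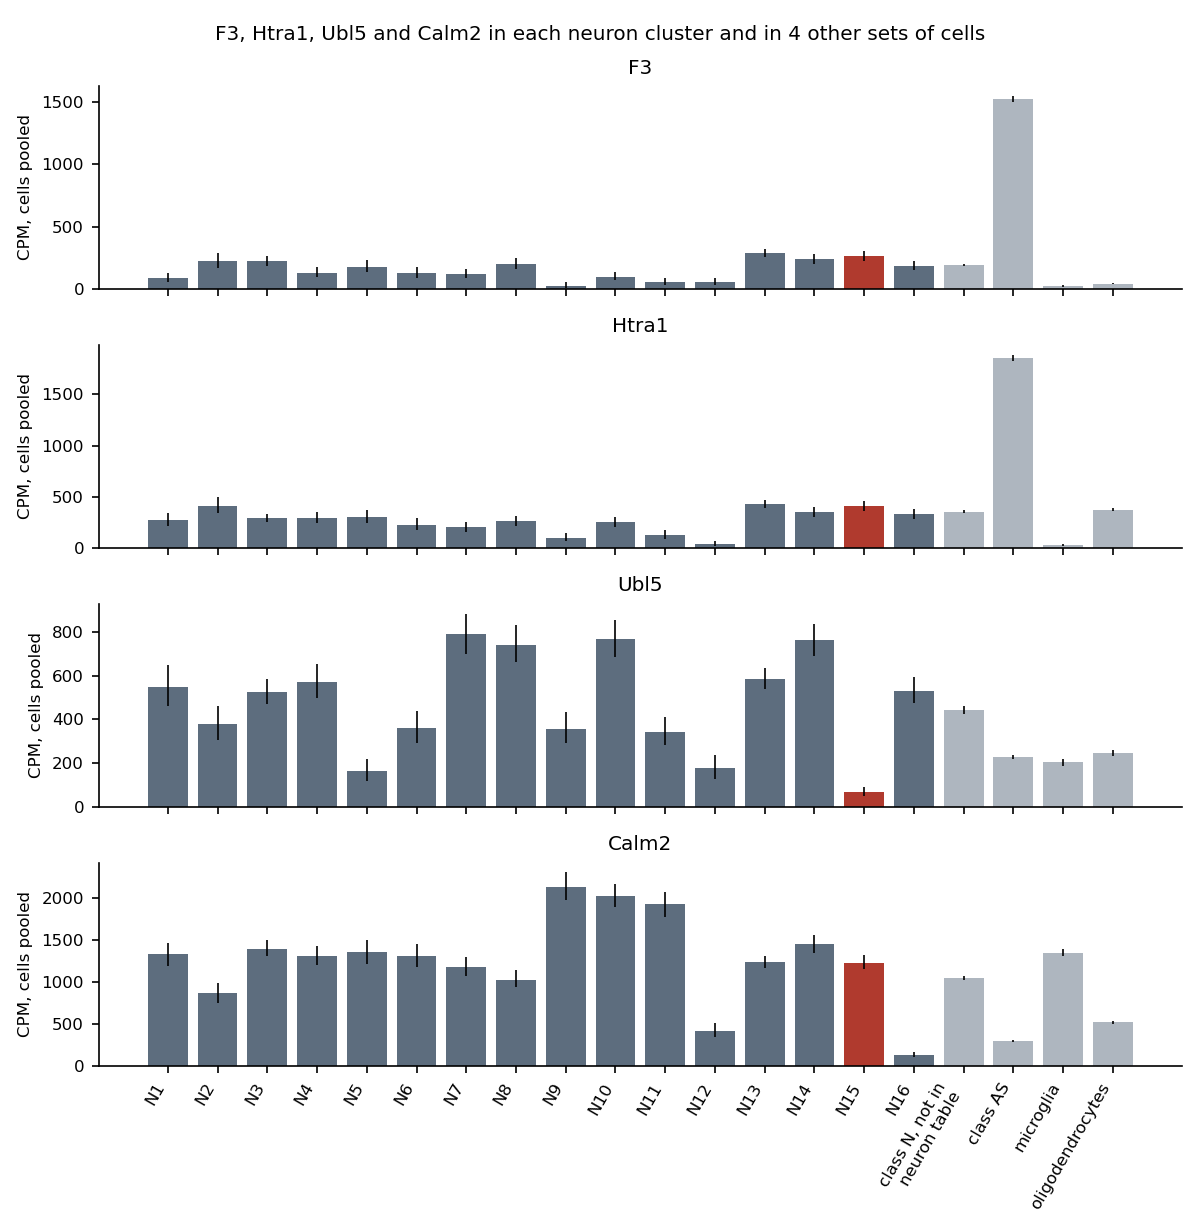
Level of F3, Htra1, Ubl5 and Calm2 in CPM (y axes, linear, from 0) with the cells of each set pooled, for the 16 neuron clusters (N15 in red) and 4 other sets of cells; bars are the pooled level and lines the 95% exact Poisson interval. F3 and Htra1 in N15 lie among several clusters and far under class AS, whereas Ubl5 is at 66.9 CPM in N15 and Calm2 at 128 CPM in N16.

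What set N15 apart from its nearest clusters was a low level of Ubl5, which encodes a ubiquitin-like protein of messenger RNA splicing. The values in N15 were 49.9, 133, 73.8 and 0 CPM in naive 1 to 4, 93.9 and 74.7 CPM after seizure, 63.6 and 66.5 CPM after immobilization and 43.2, 36.0 and 66.8 CPM after odor. The other neuron clusters held 476 to 622 CPM in those libraries, so no N15 library reached them. At least 1 UMI was found in 35 of 271 N15 cells (12.9%), against 90.6% in N13, 99.0% in N14 and 68.3% in N16. Even class AS, with fewer UMIs per cell, had a share of 26.4%.

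On the log2(CPM + 10) scale, the mean over libraries was lower in N15 by 3.06 against N13, by 3.43 against N14 and by 2.93 against N16, in 11 of 11 libraries each. In the same way Calm2, a calmodulin gene, set N15 apart from N16, with 1230 CPM in 99.3% of N15 cells and 128 CPM in 22% of N16 cells (cells pooled). Of 4184 genes compared with N13, 0 were at least 4-fold higher in N15 and 2 were lower, Ubl5 and Ptgds, an enzyme of prostaglandin synthesis. The counts were 0 and 3 of 4199 genes against N14 and 1 and 2 of 4118 against N16. Since any of these genes may have served to make the clusters, these are descriptions and carry no test.

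Over 7884 genes, the pooled log2 profile of N15 was most like that of the class N cells left out of the neuron table (Pearson's r = 0.977, Spearman's rho = 0.959 across genes, which are not independent replicates). The next in order were N13 (0.971), N14 and N16 (0.965 each) and N3 (0.963). Class AS gave 0.788 and N12 0.602. These sets share libraries, and sets with more UMIs give steadier profiles. The class N cells outside the table numbered 6206, with a median of 864 UMIs and at most 2700 genes per cell.

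Few genes were higher in N15 than in the other neuron clusters as a whole. Only genes with at least 50 CPM in N15 were counted. Genes under that level, such as Gad2 (described below), could not appear as lower. Of the 3810 genes counted, 1 was at least 2-fold higher on the log2(CPM + 10) scale and 5 were at least 2-fold lower. The gene that passed was Metap1d, a mitochondrial methionine aminopeptidase, at a log2 of 1.13 (57.6 ± 75.9 CPM in N15, SD over 11 libraries, against 20.9 CPM). Its libraries ranged from 0 to 271 CPM, and 6 of 11 lay above the other neurons of the same library. Slc15a2, a peptide transporter of astrocytes, was at 0.90 (138 ± 64.8 against 69.1 ± 11.4 CPM) and was higher in 9 of 11 libraries. Tspan15, a tetraspanin, stood at 0.95 and Tmem8b at 0.76, the latter higher in 10 of 11 libraries.

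The rest of the 15 that lead this ratio lay between 0.75 and 0.93, and 2 of them are known from other glia. Itgam, an integrin of microglia, had a mean of 83.3 CPM but a median of 46.9 and a maximum of 324 CPM. Pdgfra, the growth factor receptor of oligodendrocyte precursors, had a median of 36.9 and a maximum of 325 CPM. Both also lead the genes higher in N15 than in the other neurons and class AS alike, and both means rest on a few high libraries.

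Among genes with at least 50 CPM in the other neuron clusters, the 10 that stood lowest in N15 are given here, chosen after their values were seen. Gad2, an enzyme of GABA synthesis, was at -3.67 (10.5 ± 16.1 against 251 ± 70.6 CPM) and lower in all 11 libraries. Gad1, its sister enzyme, was at -1.65, and Slc32a1, the vesicular GABA transporter, at -1.55. The clusters nearest to N15 also held little of Gad2, with means of 23.5 CPM in N13, 7.72 in N14 and 19.8 in N16. The noncoding RNAs Snhg11, Meg3 and Miat were at -3.25, -2.58 and -1.64, against a reference that holds N9 and N12, where they are abundant. With cells pooled, Meg3 stood at 452 CPM in N15, number 4 of the 16 clusters, against 10500 in N9 and 61700 in N12. Snhg11 had a mean of 99.6 CPM in N15 and of 45.6, 79.5 and 69.9 in N13, N14 and N16. Scg2, a granin of dense-core vesicles, was at -1.39 and Ndnf, a secreted neurotrophic factor, at -2.31. Ubl5, described above, was at -2.93. Avp, the vasopressin hormone, had the lowest ratio, but its level in the other neurons had a median of 9.11 CPM and a maximum of 27500 CPM, so a single library sets it. The median over the 3810 genes with at least 50 CPM in N15 was 0.03.

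N15 held neuronal genes well above the astrocyte level. All 11 genes of the cytoskeleton and axonal transport list and all 12 of the synaptic vesicle list had a higher mean than in class AS, with median differences of 2.20 and 1.75 log2, where the median over all genes was 0.26. Kif5a, a kinesin motor, stood at 3520 ± 447 CPM in N15 against 700 in class AS. Map2, a dendritic microtubule protein, stood at 3040 ± 702 against 751 CPM. Snap25, part of the vesicle fusion complex, stood at 496 ± 207 CPM (242 to 976) against 71.5 CPM, with no overlap between N15 and AS libraries. Against the other neuron clusters the same lists were lower by a median of 0.13 and 0.20 log2.

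A list of messengers known to be carried into dendrites was added after levels were seen. Its 12 genes summed to 8161 ± 1250 CPM in N15, against 7949 ± 561 in the other neuron clusters and 1678 ± 300 in class AS. Camk2a, the kinase of postsynaptic plasticity, stood at 1410 ± 305 CPM and at 1390 in the other neurons. Nrgn, which binds calmodulin in dendritic spines, stood at 759 ± 153 CPM and at 771. The ion channel and receptor list was split, with 12 of 14 genes above class AS. Gria2, a glutamate receptor subunit, was lower in N15 (332 ± 119 CPM) than in class AS (1570 CPM), and Gabbr2, a GABA receptor subunit, stood at 174 against 288 CPM.

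The transmitter of N15 was marked weakly. The 7 genes of the inhibitory list summed to 121 ± 60.4 CPM, against 542 ± 82.4 in the other neuron clusters and 84.1 ± 25.9 in class AS, and N15 ranked number 15 of 16 clusters. The excitatory list summed to 1587 ± 381 CPM against 1653 ± 294, but Camk2a makes up most of it. The vesicular glutamate transporters Slc17a6 and Slc17a7 stood at 64.1 ± 56.8 and 18.2 ± 30.8 CPM. After thinning to 600 UMIs, 55.4% of N15 cells had a UMI of the excitatory list alone, 3.69% of the inhibitory list alone and 3.69% of both. With cells pooled, the excitatory list stood at 1634 CPM in N15 and at 1337 to 1660 CPM in N1 to N8. Those clusters held 715.8 to 1095 CPM of the inhibitory list, so the excitatory list does not name the transmitter of N15. Among peptides, Sst was at 132 ± 77.4 CPM and Cck at 167 ± 79.2 CPM.

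The astrocyte genes held in the same cells were numerous. The astrocyte list summed to 27640, 25600, 24110 and 23110 CPM in naive 1 to 4, 27160 and 27110 CPM after seizure, 31350 and 30570 CPM after immobilization and 30640, 25290 and 29160 CPM after odor. Class AS held 48620 to 54670 CPM, above every N15 library, and the other neuron clusters 20250 to 25460 CPM, which overlaps the lower end of N15. Of the 15 list genes found in the table, 15 had a higher mean in N15 than in the other neuron clusters and 1, Aldoc, a higher mean than in class AS. N15 ranked number 3 of the 16 clusters on this list, with N16 at the top.

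Of the 10 genes of transmitter uptake and metabolism, 3 had a higher mean than in class AS. Aldoc, an aldolase of glycolysis, stood at 5540 ± 808 CPM in N15 and 5190 in class AS. Slc1a2, the main glutamate transporter, stood at 5160 ± 558 against 5920 CPM, and Glul, which makes glutamine, at 4160 ± 518 against 3930 CPM. Slc1a3, a second glutamate transporter, stood at 2990 ± 377 against 5770 CPM. Astrocyte channel and junction genes lay further off, with 1 of 10 above class AS and a median difference of -1.41 log2, against -0.53 for uptake and metabolism and -0.57 for lipid and secreted proteins. Gja1, the connexin of astrocyte gap junctions, stood at 1140 ± 241 against 4340 CPM.

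Secreted proteins were abundant in N15, as in most neuron clusters. With cells pooled, the lipid and secreted protein list stood at 71930 CPM, number 6 of the 16 clusters (median 69730, highest 78210 in N16). Microglia held 68530 CPM of it. Apoe, the lipid carrier, stood at 20500 ± 2230 CPM against 27800 in class AS, and Cst3, a protease inhibitor, at 17800 ± 3100 against 21000 CPM. Sparc, a matrix protein, went the other way with 7820 ± 1470 against 3260 CPM, as did Cpe, a carboxypeptidase that processes peptide hormones, with 8740 ± 1290 against 4740 CPM, each higher in 11 of 11 libraries. Of 14 transcription factors of astrocytes and glial progenitors, 11 had a higher mean than in the other neurons and 2 a higher mean than in class AS. Sox9, which marks the astrocyte lineage, stood at 209 ± 59.8 CPM against 697 in class AS and 218 in the other neurons.

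**Figure D2:**
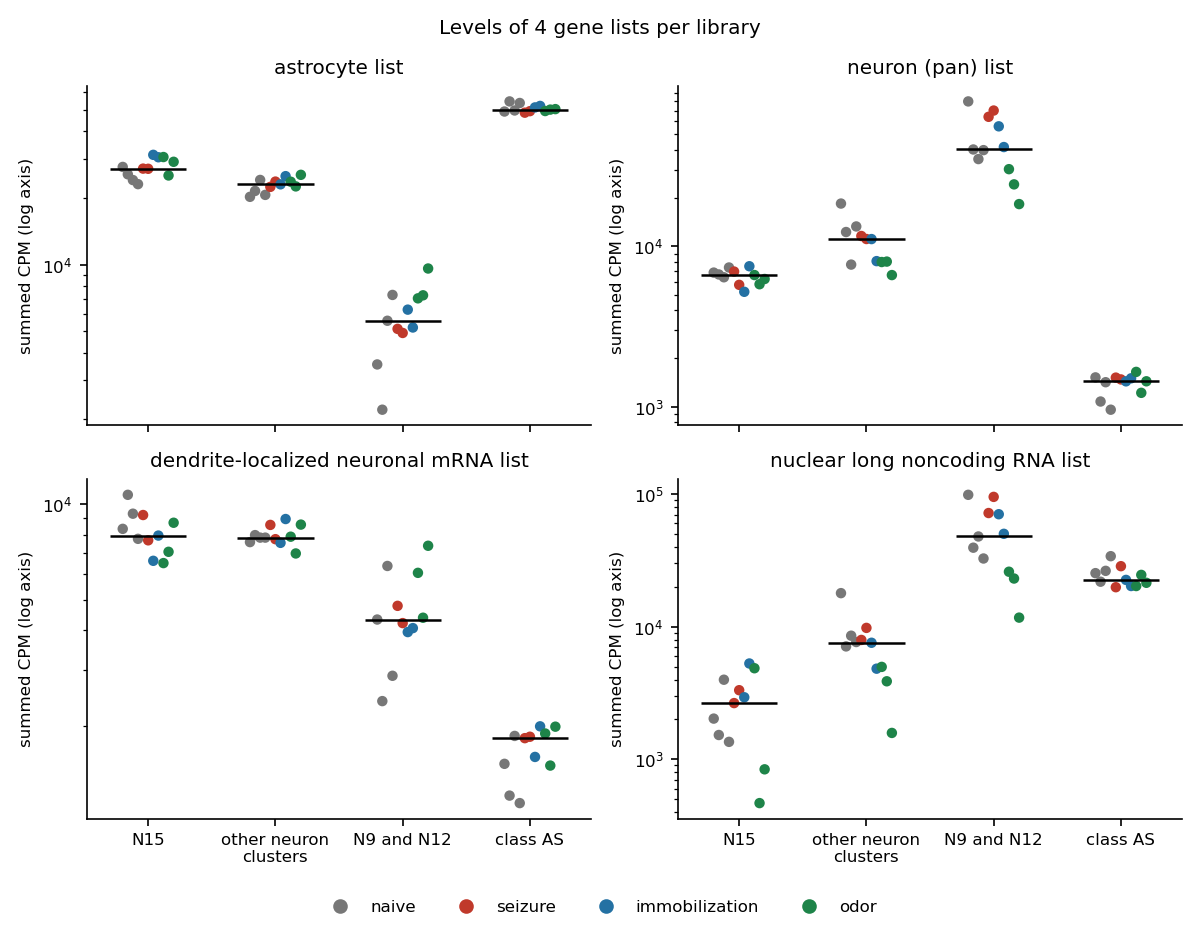
Summed level of 4 gene lists in CPM (y axes, log scale) in N15, the other neuron clusters, N9 with N12 and class AS; each point is 1 of 11 libraries, coloured by group, and lines are medians. N15 lies at 23110 to 31350 CPM for the astrocyte list, between N9 with N12 and class AS, and at 468 to 5283 CPM for nuclear long noncoding RNA, under class AS in every library.

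Clusters N9 and N12, with 220 cells, hold the least of the astrocyte list in the neuron table (5405 and 4440 CPM with cells pooled, against 15320 or more in the other clusters), and were added as a further reference after these levels were seen. Genes at least 4-fold apart between them and class AS gave 490 neuronal and 364 astrocyte genes. N15 held a median of 33.6% of the N9 and N12 level of the neuronal genes and 34.3% of the AS level of the astrocyte genes. Of the neuronal genes, 18 were at or above the reference and 60 under 10% of it. Of the astrocyte genes, 3 were at or above it and 12 under 10%. Each gene was chosen for a high level in the set it is measured against, so a lower level in N15 is partly built in. These shares are a description, and those of other clusters are not given here.

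The best held neuronal genes were Nrgn (150%), Sult4a1, a brain sulfotransferase (142%), Jph4, a junctophilin (132%), and Cnih2, an auxiliary protein of AMPA receptors (131%). At 0 CPM in N15 were 11 of the neuronal genes, among them the hormone Oxt, the transcription factors Lhx1, Lhx5, Nhlh2 and Ebf3, the peptide processing enzyme Pcsk1 and Grik1, a glutamate receptor subunit. Snhg11 stood at 1.02%. The best held astrocyte genes were Aldoc (107%), Glud1, glutamate dehydrogenase (104%), and Acaa2, an enzyme of fatty acid oxidation (102%). The least held, Tnc, Cidea and Aebp1, were at 0 CPM, with Myoc, a secreted olfactomedin protein, at 6.96 CPM against 348 CPM and Neat1, a nuclear noncoding RNA, at 8.36%.

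**Figure D3:**
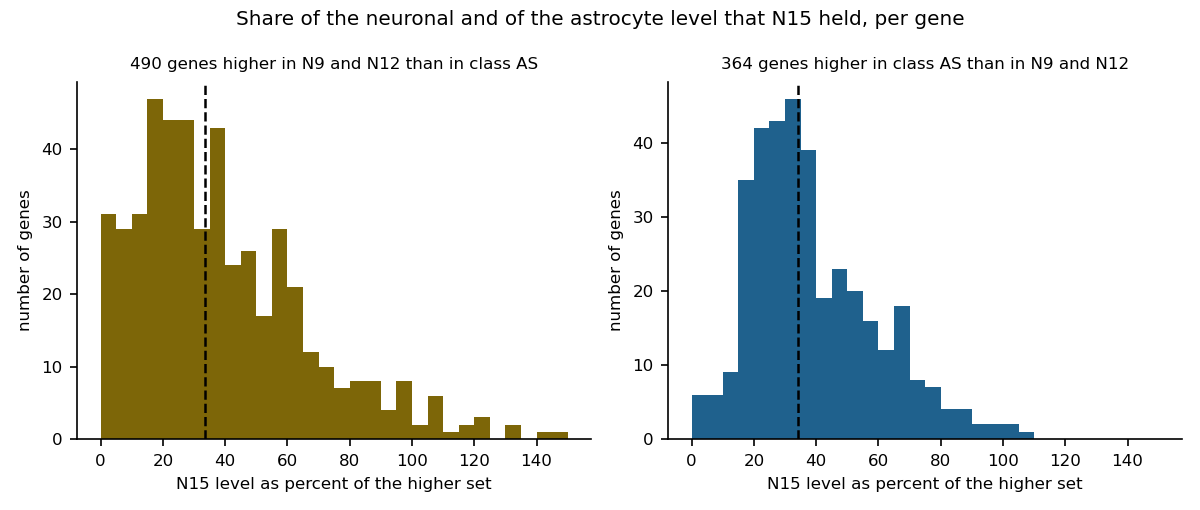
Number of genes (y axes) by the N15 level as a percent of the level in the set that defines the gene (x axes, in steps of 5, last step at 150 or more), for 490 neuronal and 364 astrocyte genes; dashed lines are medians. The medians, 33.6% and 34.3%, lie close together, and the neuronal genes have more members under 10%.

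Least squares over genes placed each N15 library on a line from the other neuron clusters (weight 0) to class AS (weight 1). Naive 3, seizure 1 (-0.00973) and odor 2 (-0.0247) fell below 0, outside the stretch between the references. The weights of naive 1 to 4 were 0.0742, 0.0286, -0.0783 and 0.308, with a mean over 11 libraries of 0.0702 ± 0.105. With N9 and N12 as the neurons, the mean was 0.717 ± 0.195 (0.411 to 0.954). The place of N15 changed with the reference. Of 4918 genes, 2272 (46.2%) lay between other neurons and class AS. At least 2-fold above both lay 0, and 14 lay at least 2-fold below both, among them Ubl5, Gad2 and Miat.

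Neuronal and astrocyte genes were seen in the same cells. After thinning to 600 UMIs, at least 1 UMI of both the neuronal list (without the nuclear RNAs Meg3 and Snhg11) and the astrocyte list was found in 260 of 271 N15 cells, which is 95.9% (exact binomial interval 92.9 to 98.0). The share was 89.7% to 100% over the 11 libraries. It was 93.2% in the other neuron clusters, 66.4% in N9 and N12 and 33.6% in class AS. As background, microglia gave 11.5% and oligodendrocytes 11.7%, with unthinned medians of 1130 and 2181 UMIs. Before thinning, 100% of N15 cells had both.

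Within N15, the astrocyte list took a median of 2.72% of a cell's UMIs (0.679 to 4.81) and the neuronal list 0.573% (0.101 to 1.67). Cells with more of the one had less of the other (Spearman's rho = -0.476, Pearson's r = -0.472 over 271 cells of 14 libraries, shares of the same total). The median astrocyte share was 5.32% in class AS and 0.235% in N9 and N12. Deeper cells had a somewhat larger astrocyte share (rho = 0.286 with UMIs).

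**Figure D4:**
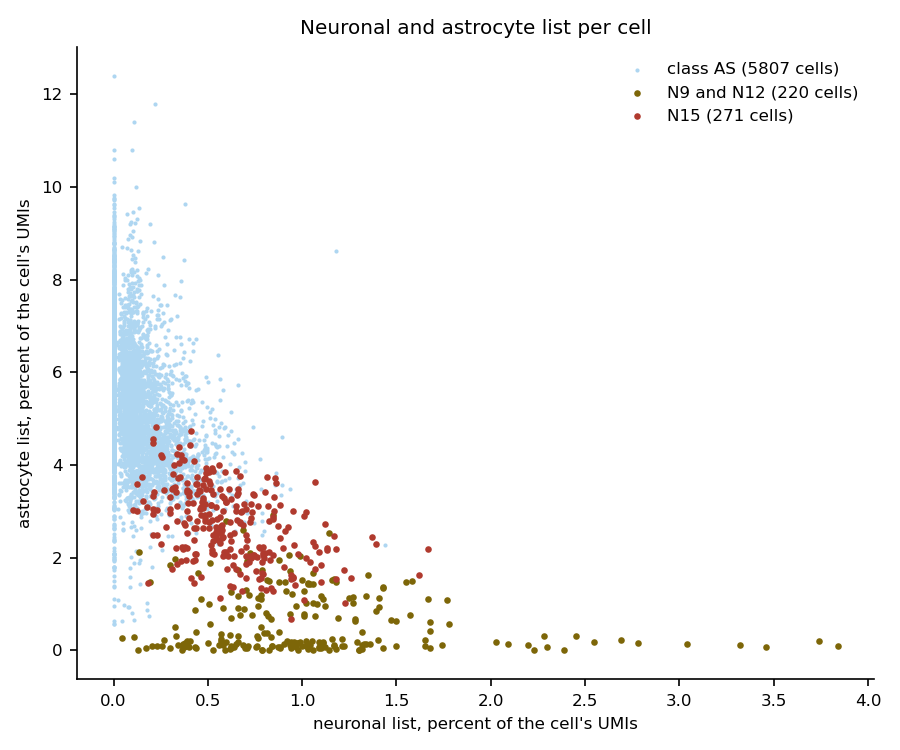
Percent of each cell's UMIs in the neuronal list without nuclear RNA (x axis) and in the astrocyte list (y axis), with 1 point per cell, for N15, N9 with N12 and class AS. N15 cells lie at 0.101 to 1.67% on the x axis and 0.679 to 4.81% on the y axis, between the other sets.

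N15 cells held less nuclear long noncoding RNA than class AS, as did most neuron clusters. The 7 genes summed to 2662 ± 1600 CPM (468 to 5283), against 7439 ± 4200 in the other neuron clusters, 24100 ± 4330 in class AS and 51550 ± 29100 in N9 and N12. With cells pooled, N15 was number 9 of the 16 clusters at 2849 CPM, where N9 and N12 held 29890 and 107500 CPM and the rest 1106 to 5316 CPM. The median N15 cell gave 0.0725% of its UMIs to the list and the median cell of the other clusters 0.0683%. Malat1, found in the nucleus of nearly all cells, stood at 2040 ± 1220 CPM, whereas class AS held 23600 CPM, microglia 11900 and oligodendrocytes 12900. The lower quartile of the nuclear share among class AS cells was 1.53% of UMIs, and 6 of 271 N15 cells (2.21%) reached it, against 63.6% of N9 and N12 cells and 39 of 1953 cells (2%) of the other clusters. The 17 N15 cells outside class N held 46.1% of the UMIs of this list in N15 with 11.2% of all its UMIs. The 14 among them in class AS had a median of 3774 UMIs.

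Markers of other glia were present at low levels. The 9 microglial genes summed to 998 ± 534 CPM in N15 (449 to 2054), 874 ± 234 in the other neuron clusters and 284 ± 59.5 in class AS. C1qb, a complement subunit of microglia, stood at 189 ± 135 CPM in N15 and 7170 in microglia. The 9 oligodendrocyte genes summed to 3377 ± 980 CPM (1794 to 4990) against 3684 ± 896 and 1361 ± 217. Mbp, a myelin protein, stood at 1730 ± 524 CPM against 9660 in oligodendrocytes. The 7 endothelial genes summed to 52.5 ± 59.5 CPM, and of the 6 mural genes Acta2, Kcnj8 and Higd1b were at 0 in every N15 library. The part of cells caught together, of cell fragments and of free RNA in these mixed levels was not tested.

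Conditions were compared over libraries, in 1837 genes that passed the filter on low counts, with edgeR's quasi-likelihood test and Benjamini-Hochberg adjustment at a threshold of 0.05. The choice of N15 cells did not use the groups. All 3 contrasts share the naive libraries.

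After immobilization 5 genes passed, 0.272% of those tested, and 4 of them rose. Tsc22d3, a leucine zipper protein induced by glucocorticoids (chromosome X, 140539528 to 140600659, minus strand), stood at 83.2, 133, 123 and 54.2 CPM in naive 1 to 4 and at 573 and 449 CPM after immobilization, with no overlap. The log2 change was 2.32 (SE 0.41, adjusted p = 0.000371). It passed without each library in turn and in all 10 other settings tried.

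Mt1 and Mt2 encode metallothioneins, small zinc-binding proteins also induced by glucocorticoids, and lie side by side on chromosome 8 (94179082 to 94180327 and 94172664 to 94173568, plus strand). Mt1 stood at 6010 to 7170 CPM in naive libraries and at 10600 CPM in both immobilization libraries, a log2 rise of 0.74 (SE 0.15, adjusted p = 0.00305). Mt2 rose by 0.91 (SE 0.20, adjusted p = 0.00907), from 1430 to 2980 CPM to 3660 and 3790 CPM. The groups did not overlap for either gene. Mt1 was also higher in the other neuron clusters (5220 to 6930 CPM in naive libraries, 8240 and 8740 CPM after immobilization). In class AS it stood at 6250 to 8180 CPM and at 9080 and 11700 CPM. Mt2 was likewise higher in both sets. Without immobilization 1 or 2 Mt1 did not pass (adjusted p up to 0.107), and Mt2 did not pass without those or without naive 1 or 3 (up to 0.264). With a replicate block Mt1 was at an adjusted p of 0.118, and Mt2 did not pass with the block, with DESeq2 or without the cells with the most UMIs.

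Htra1 rose by a log2 of 1.52 (SE 0.34, adjusted p = 0.00978), and the immobilization libraries lay above all naive ones. It did not pass without naive 3 or immobilization 2 (adjusted p up to 0.394), among N15 cells that are also in class N, or in 6 other settings. F3 stood at 1.13 (SE 0.39, adjusted p = 0.561) and did not pass. Ptges3, a co-chaperone of steroid receptors (chromosome 10, 128058954 to 128077272, plus strand), fell by 2.48 on the log2 scale (SE 0.59, adjusted p = 0.0209), from 150, 299, 357 and 488 CPM in naive 1 to 4 to 38.2 and 66.5 CPM. In the other neuron clusters it lay at 112 to 146 CPM in naive libraries, so the naive N15 values stood above them. It did not pass without naive 2, 3 or 4 or either immobilization library (adjusted p up to 0.629), nor in 6 of 10 other settings (up to 0.65).

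After odor 1 gene passed, 0.0544% of those tested. Tsc22d3 stood at 562, 468 and 561 CPM, above all naive libraries, a log2 rise of 2.36 (SE 0.39, adjusted p = 7.67e-05), and it passed without each library and in the 10 other settings. Mt1 was at 0.55 (adjusted p = 0.118) and Mt2 at 0.64 (0.234). After seizure 0 genes passed, 0% of those tested, with 65 at an unadjusted p under 0.05 and 0 by DESeq2. Tsc22d3 stood at 178 and 635 CPM, both above the naive libraries, at a log2 of 1.81 (SE 0.43, adjusted p = 0.127). Without seizure 1 the log2 of Tsc22d3 was 2.59, which rests on the single seizure library left.

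**Figure D5:**
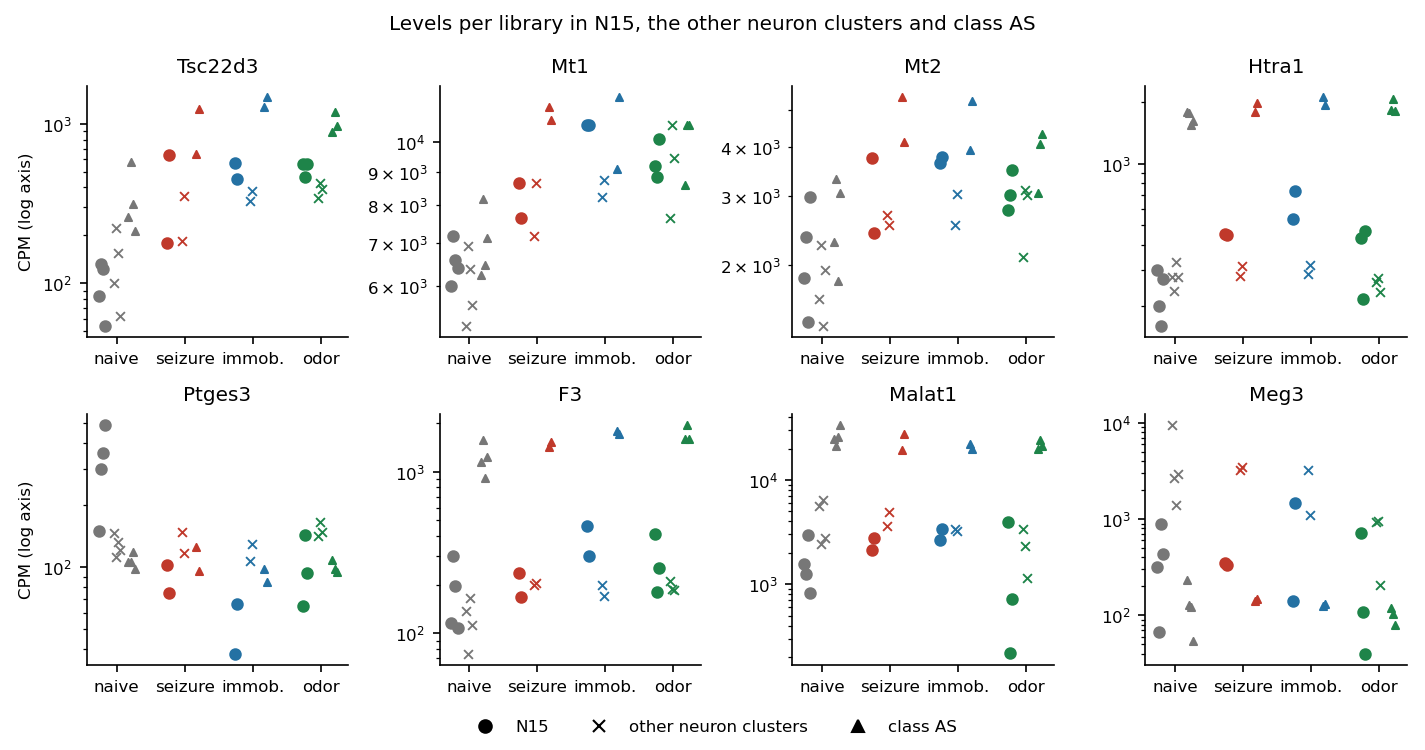
Level in CPM (y axes, log scale) of 8 genes by group (x axis) in N15 (circles), the other neuron clusters (crosses) and class AS (triangles), with 1 point per library. Tsc22d3 in N15 lies at 54.2 to 133 CPM in naive libraries and at 178 CPM or more in all 7 stimulated ones, and Htra1 in N15 stays under class AS in every library.

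The wider group of 20 glucocorticoid responsive genes had 6 members tested. After immobilization 3 passed, all higher, where 5 of all 1837 tested genes (0.272%) passed. They are the Tsc22d3, Mt1 and Mt2 given above, and the list was chosen with earlier results of these data known. The median log2 of the 6 was 1.35 where the median of all tested genes was -0.02. After odor 1 passed (median 0.74), the Tsc22d3 that was the only gene past the threshold among all tested (0.0544%). After seizure 0 passed (median 0.72), as among all genes (0%). Nfkbia, an inhibitor of NF-kappaB, did not pass after immobilization (2.46, SE 0.77, adjusted p = 0.404), with 28 UMIs against 7 in naive N15. Its pooled ratio was 5.47 (exact interval 2.34 to 14.8). In class AS it rose by 1.80 (adjusted p = 3.84e-07). Of 10 Notch pathway genes Hes5, a repressor of neuronal fate, was tested alone, and was at -1.63 after seizure (SE 0.47, adjusted p = 0.571).

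Immediate early genes, the transcription factors and effectors that neurons switch on within minutes of activity, were too sparse for the fit in N15, and 1 of 24, Jund, passed the filter. Fos gave 1 UMI in 189934 in naive N15 and 27 in 160062 after seizure. Per library this is 16.6, 0, 0 and 0 CPM in naive 1 to 4 and 141 and 224 CPM after seizure. The pooled ratio was 32.0 (exact interval 5.28 to 1310), and with no filter Fos passed at a log2 of 4.63 (adjusted p = 0.0304). Egr1 had 6 and 21 UMIs (ratio 4.15, interval 1.62 to 12.6). Arc, which regulates synaptic receptors, had 2 and 16 (9.49, 2.23 to 85.1), and Junb 3 and 15 (5.93, 1.68 to 32.0). In each of these 4 genes both seizure libraries lay above all naive ones. The rise of Fos was not particular to N15. In class AS it stood at 14.7 to 24.1 CPM in naive libraries and at 377 and 400 CPM after seizure. In the other neuron clusters it stood at 3.12 to 8.93 CPM and at 130 and 156 CPM. The whole list summed to 200 to 332 CPM in naive N15, 995 and 1512 CPM after seizure, 433 and 482 CPM after immobilization and 303 to 577 CPM after odor.

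Whether N15 responded differently from other cells was tested by the interaction of cell set and group, with the library as a block, and a gene that did not pass is not shown to respond alike. Against class AS 0 of 9331 genes passed after seizure (0%, 343 unadjusted, 0 by DESeq2), 1 after immobilization (0.0107%) and 0 after odor (0%, 409 unadjusted, 0 by DESeq2). The gene was Malat1 (chromosome 19, 5795690 to 5802672, minus strand), whose change was higher in N15 by a log2 of 1.34 (SE 0.27, adjusted p = 0.00601). In N15 it stood at 814 to 2950 CPM in naive libraries and at 2670 and 3370 CPM after immobilization, which overlap, and in class AS at 21300 to 33600 and at 22000 and 19900 CPM. It did not pass without naive 2, naive 4 or immobilization 2.

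Against the other neuron clusters 0 of 5702 genes passed after seizure (0%, 186 unadjusted, 0 by DESeq2), 2 after immobilization (0.0351%) and 1 after odor (0.0175%). Malat1 was at 1.39 after immobilization (SE 0.22, adjusted p = 4.21e-06). Neither this difference nor that from class AS passed with DESeq2 or without the 5% of N15 cells with the most UMIs. Meg3 (chromosome 12, 109541001 to 109571726, plus strand), a maternally expressed noncoding RNA, was at 1.51 after immobilization (SE 0.30, adjusted p = 0.00145) and at 1.60 after odor (SE 0.35, adjusted p = 0.0216). Meg3 in N15 stood at 316, 66.4, 886 and 434 CPM in naive 1 to 4, at 140 and 1480 CPM after immobilization and at 714, 108 and 40.1 CPM after odor, a wide spread that overlaps. Its change within N15 was 0.70 after immobilization and -0.79 after odor, and neither passed. With cells pooled, Meg3 stood at 10500 CPM in N9, 61700 in N12 and 136 to 541 in the rest. N9 with N12 held 14200 to 58600 CPM in naive libraries and 3400 to 9420 CPM after odor. In the other neuron clusters as a whole it fell by 2.56 after odor (SE 0.47, adjusted p = 0.0222). There Meg3 went from 1420 to 9490 CPM to 207 to 953 CPM, and the part of N9 and N12 was not tested. Without immobilization 2 its value was -1.57, and neither gene passed. Meg3 also did not pass without naive 1 or naive 2. Without odor 1 the value of Meg3 after odor was 0.01 and did not pass, nor did it without naive 1, 2 or 4 or any 1 seizure or immobilization library.

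The change of Htra1 after immobilization was 0.13 in the other neuron clusters and 0.28 in class AS, and the difference from N15 did not pass against either (1.53, adjusted p = 0.0534, and 1.36, adjusted p = 0.963). Tsc22d3 rose in class AS by 2.02 after immobilization (adjusted p = 7.58e-07) and in the other neuron clusters by 1.41 (adjusted p = 0.015), and its difference from N15 was 0.40 (SE 0.45) and 1.06 (SE 0.44), neither past the threshold. With far more UMIs per library, class AS alone had 40, 85 and 60 genes past the threshold after seizure, immobilization and odor (0.395%, 0.84% and 0.593% of 10122). The other neuron clusters alone had 7, 5 and 6 (0.0797%, 0.0569% and 0.0683% of 8787).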

How the data were processed

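Drop-seq libraries of dissociated medial amygdala were deposited by the authors as tables of raw UMI counts per gene and cell. The submitters' processing notes name bcl2fastq 2.17.1.14, the aligner STAR 2.5.0a and the build mm10. Strand use, counter and cell filters were not given in the sources used here. In the deposited cells the lowest number of genes in a cell was 430. The neuron table repeats counts of the larger table, with 0 differing values. Cell names gave library, class and cluster. Libraries of saline-injected mice and of conventional dissociation were not used here.

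Counts of N15 cells were summed per library with at least 10 such cells and fitted over 4 groups with edgeR 4.0.16 (TMM, filterByExpr, R 4.3.3), checked on simulated data. DESeq2 1.42.0, other cell minimums (5, 20), no filter, age, a replicate block, removal of the 5% of N15 cells with the most UMIs (over 4628) and leaving out each library were alternatives. Levels are CPM of a set's summed counts, mean ± SD over libraries; log2 ratios of levels used a pseudocount of 10 CPM. Counts are of molecules and are not divided by gene length. Thinning used 1 seed. Python 3.11.15, scipy 1.17.1 and matplotlib 3.10.9 were used.

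Genes were named as follows: F3 and Htra1, leading genes by ratio over the other neurons (15), class AS (10) and both (10), genes past the threshold, and list members by N15 level. Genes with the lowest ratios, those most or least held and those that differ from the nearest clusters were chosen after their values were seen. The members and lists were chosen with earlier results of these data known.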

Additional observations from a re-analysis of the deposited data

Results flagged for a closer look

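In the 4 naive libraries, 7 of 63 values checked for N15 had 1 library far from the others, where chance gives about 1 in 20. A value at 0 in all libraries but 1 is always flagged, so that rate does not hold for sparse genes. Fos stood at 16.6 CPM in naive 1, Sgk1 at 12.3 CPM in naive 3 and Cdkn1a at 33.2 CPM in naive 2, and each was at 0 in the other naive libraries, so a single UMI sets each value. The ependymal list was likewise at 12.3 CPM in naive 3 and at 0 elsewhere. Aldoc was low in naive 4, at 4280 CPM against 5390 to 5510 CPM. The microglia list was high in naive 4, at 1464 CPM against 616 to 730 CPM, in the library with the fewest N15 cells (10). The list of coagulation factors and proteases was low in naive 2, at 2689 CPM against 3146 to 3178 CPM.

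The response of Malat1 to immobilization differed between N15 and class AS by a log2 of 1.34 (adjusted p = 0.00601) and between N15 and the other neuron clusters by 1.39 (adjusted p = 4.21e-06), by the interaction term of edgeR's quasi-likelihood test. That of Meg3 differed from the other neuron clusters by 1.51 after immobilization (adjusted p = 0.00145) and by 1.60 after odor (adjusted p = 0.0216). The 17 N15 cells outside class N hold 46.1% of the nuclear noncoding UMIs of N15. Each of these differences also passed with only the N15 cells that are in class N, a setting added after the values were seen. None of them passed with DESeq2, and neither Malat1 difference passed without the 5% of N15 cells with the most UMIs. The part of these cells was not tested further.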

How the results depend on the processing

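With DESeq2 the numbers of genes past the threshold in N15 were 2 after immobilization and 2 after odor, and 0 in the interactions with class AS (immobilization) and with the other neuron clusters (immobilization and odor). With at least 20 cells per library they were 3 after immobilization, and 0 (class AS, immobilization), 1 and 4 (other neurons, immobilization and odor) in the interactions. With no filter on low counts they were 1 after seizure, 3 after immobilization and 0 for the interaction with other neurons after odor. Without the 5% of cells with the most UMIs they were 2 after immobilization, and 0 and 1 for the immobilization interactions with class AS and other neurons. With age as a covariate they were 1 after seizure and 2 after odor, and with mice of 8 weeks alone 1 and 3. Limiting the interactions to genes tested in N15 alone, added after the data were seen, gave 0 for class AS after immobilization and 0 for other neurons after odor. Other neurons without N13, N14 and N16 gave 2 after odor. Same-numbered libraries did not deviate together (correlations -0.081 to 0.028), and a fit with a replicate block gave 0, 1 and 1 genes after seizure, immobilization and odor.

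Leaving out 1 library gave 0 to 3 genes after seizure, 1 to 6 after immobilization and 1 to 3 after odor. The interactions gave 0 to 0, 0 to 1 and 0 to 0 genes against class AS and 0 to 0, 0 to 3 and 0 to 2 against other neurons. A lone sample left in a group was assumed to vary like the other groups. The profile weight was 0.0464 to 0.085, the astrocyte list 27000 to 27900 CPM, the pan-neuronal list 6390 to 6620 CPM and the nuclear list 2400 to 2880 CPM. Meg3 after immobilization against other neurons reversed to -1.57 without immobilization 2 and was 3.32 without immobilization 1. The profile weight was 0.717 with N9 and N12 as reference, and the share of cells with both lists 100% without thinning and 86.3% at 2 UMIs of each. Of 98 pairs of a result and a setting other than a left-out library, 72 kept their value or side, as did 148 of 205 pairs for single called genes, left-out libraries included. The causes of these shifts were not tested. With 10 to 44 cells a library, genes of low level could not be compared.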
